A study of Homo sapiens with 6 samples.

Results

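The proteasome subunit genes were examined in the tumor core (TC) and the tumor margin (TM) of human breast cancer xenografts. They were taken as the protein-coding genes whose symbol starts with PSMA, PSMB, PSMC, PSMD, PSME, PSMF or PSMG and a digit, without the pseudogenes and without a pair of immunoproteasome genes. The rule found 48 genes among 60671 annotated genes of the matrix. Of these, 17 encode the 20S core (8 of the alpha ring and 9 of the beta ring) and 17 encode the 19S cap (6 ATPases and 11 non-ATPase subunits). A further 3 encode chaperones of cap assembly, 4 chaperones of core assembly and 5 other activators or regulators, and 2 (PSMC3IP and PSME3IP1) match by symbol and are not subunits.

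RNA was sequenced from 3 TC and 3 TM samples. Tumors had been raised from wild-type MDA-MB-231 cells, an established line of human breast cancer without hormone receptors or HER2 amplification (triple-negative), by orthotopic injection, that is into the mammary fat pad of NSG mice, which lack T, B and NK cells but keep macrophages and stroma. The study's text gives 3 mice per group. The mice were females of 6 to 8 weeks when obtained. No drug or other allele was named, and the labels did not say whether a TC and a TM sample with one number came from the same mouse. The values were TPM, a measure of transcript abundance that allows for transcript length and has one fixed total per sample, so that levels can be set side by side between genes. Sequencing depth was unknown, and p-values measure the spread between these samples.

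The 26S proteasome is the ATP-dependent protease that degrades most ubiquitin-tagged proteins of the cell. Its 20S core is a barrel in which the active sites sit on beta subunits inside, and its 19S cap binds the ubiquitin chain, removes it, unfolds the substrate and feeds it into the barrel. In cancer cells, which make much protein, the subunit genes are expressed at high levels and are induced together by NRF1 (NFE2L1), a transcription factor that binds antioxidant response elements (ARE) when proteasome activity falls short.

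Promoter windows from RefSeq (GRCh38.p14) were found for 42 of the 48 genes, as 52 windows. PSMA7, PSMB1, PSMB6, PSMB7, PSMD4 and PSMG3 had none. The 250 bases before each RefSeq start were searched on both strands for the ARE core TGACNNNGC, the CCAAT box CCAAT and the GC box GGGCGG. The windows below are shown because they belong to the subunit gene with the largest positive TC difference (PSMA2), and to a core gene (PSMB3), a cap gene (PSMD3) and activator genes (PSME1 and PSME4) that hold an ARE match. Matches are in capitals and the bases lie outside the GENCODE v29 gene. They span chr7:42932224-42932424, minus strand, chr17:38752491-38752735, plus strand, chr17:39980557-39980796, plus strand, chr14:24135944-24136157, plus strand, and chr2:53970994-53971243, minus strand, each written 5′ to 3′ on the strand of its gene.
PSMA2: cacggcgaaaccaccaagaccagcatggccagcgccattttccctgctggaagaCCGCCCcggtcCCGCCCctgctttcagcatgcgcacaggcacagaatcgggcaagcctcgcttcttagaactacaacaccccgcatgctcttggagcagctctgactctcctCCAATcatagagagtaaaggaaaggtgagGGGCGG
PSMB3: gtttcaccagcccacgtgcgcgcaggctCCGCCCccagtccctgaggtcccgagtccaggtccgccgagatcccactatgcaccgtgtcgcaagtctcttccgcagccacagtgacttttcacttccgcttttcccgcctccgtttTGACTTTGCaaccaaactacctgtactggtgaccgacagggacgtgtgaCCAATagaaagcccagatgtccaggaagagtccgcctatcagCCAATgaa
PSMD3: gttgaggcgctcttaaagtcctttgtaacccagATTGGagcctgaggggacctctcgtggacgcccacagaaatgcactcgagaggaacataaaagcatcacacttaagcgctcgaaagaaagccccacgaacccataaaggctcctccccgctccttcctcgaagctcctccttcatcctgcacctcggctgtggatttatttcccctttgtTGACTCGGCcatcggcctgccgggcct
PSME1: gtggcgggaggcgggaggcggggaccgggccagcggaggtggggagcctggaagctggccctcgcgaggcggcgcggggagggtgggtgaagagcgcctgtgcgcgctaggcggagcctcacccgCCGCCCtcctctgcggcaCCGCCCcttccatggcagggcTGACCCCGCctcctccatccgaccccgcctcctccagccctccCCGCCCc
PSME4: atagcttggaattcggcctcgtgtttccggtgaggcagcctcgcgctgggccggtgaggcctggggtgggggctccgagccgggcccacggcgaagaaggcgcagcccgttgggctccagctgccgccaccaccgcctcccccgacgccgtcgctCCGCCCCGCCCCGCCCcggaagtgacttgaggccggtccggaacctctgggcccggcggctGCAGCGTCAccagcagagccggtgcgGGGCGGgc

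The ARE match of PSMB3 began 104 bases before the RefSeq start, that of PSMD3 37, that of PSME1 86 and that of PSME4 34, the last on the opposite strand. PSMA2 held a CCAAT box and GC boxes and no ARE match. In PSME4 consecutive GC boxes overlapped by their last and first letters. A match is a description of letters and not a binding site.

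An ARE match was present in 12 of the 42 genes with a window (28.6%), compared with 13.2% of all 27305 genes with a window and 15.9% of the tested genes. The 12 were PSMA4, PSMB3, PSMC5, PSMD12, PSMD3, PSMD5, PSMD9, PSME1, PSME2, PSME4, PSMG1 and PSMG2. Per window the shares were 23.1% and 10.9% of all windows. Matches were found in 2 of 13 core genes (15.4%) and 3 of 16 cap genes (18.8%), shares near the 15.9% of the tested genes. The other genes with a match were assembly chaperones and activators. The CCAAT box occurred in 20 of the 42 genes (47.6%, against 37% of all genes with a window and 41.6% of the tested genes). The GC box occurred in 27 (64.3%, against 46.2% of all genes with a window and 74.8% of the tested genes).

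Proteasome genes were abundant, and their values varied less across samples than those of the median gene. The median over core genes of the mean TPM was 209.7, that over cap genes was 133.8 and that over all 13861 tested genes was 12.09. Across the 6 samples the median coefficient of variation was 13.09% in the core, 12.78% in the cap and 24.23% over all tested genes. No comparison was made with genes of similar abundance, so the lower variation cannot be told apart from the higher level. PSMA7, an alpha-ring subunit, had the highest mean of the subunit genes at 539.7 TPM. PSMB11, the thymus-specific catalytic subunit, was listed at 0 TPM in all 6 samples and was not tested. PSMA8, the germ-cell paralog of PSMA7, lay between 2.71 and 4.59 TPM, and whether reads were shared between these paralogs was not tested.

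The labelled cell type was checked by its markers. VIM, CD44, EGFR, KRT8, KRT18, KRT19, AXL and CAV1, which MDA-MB-231 cells express, summed to between 5524.69 and 7074.63 TPM in the 6 samples. ESR1, PGR and CDH1, which define hormone receptor status and epithelial junctions and which this line lacks, did not exceed 0.36 TPM. EPCAM, an epithelial surface protein that was also listed as low or absent, was at 3.66 to 6.02 TPM. Ribosomal protein genes took 22.919% to 25.132% of TPM in TC and 18.336% to 22.442% in TM, and mitochondrially encoded genes took 6.083% to 8.824% in TC and 9.228% to 11.067% in TM. Because TPM is a share of a fixed total, these shares move with every value below, and their part in the differences was not tested beyond the rescalings given. In bulk tissue, fewer cells of a type and less RNA per cell cannot be told apart.

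First, all subunit genes were compared between TC and TM. None of the 47 tested genes was called by limma at an adjusted p under 0.05, and the smallest adjusted p was 0.257, while 0.137% of all 13861 tested genes passed (0.00721% with a higher and 0.13% with a lower TC mean). At an unadjusted limma p under 0.05 there was 1 gene (PSMD11, lower in TC), that is 1 of 47 against 16.2% of all tested genes. The zones were without overlap in 6 of 47 genes, compared with 22.2% of all tested genes. Of these, 2 were higher in every TC sample (PSMA2 and PSMB10, against 3.28% of all tested genes) and 4 were lower (PSMB2, PSMD4, PSMD11 and PSME3IP1, against 18.9%). The split into higher and lower turned with the scaling, to 5 higher and 0 lower under median-of-ratios factors and 6 higher and 0 lower with the GC and length trend removed. It was 0 higher and 7 lower without mitochondrially encoded genes.

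The difference of mean log2(TPM + 1) between TC and TM, given as TC minus TM, was above 0 in 12 genes and below 0 in 35, with a median of -0.084. Over all tested genes 67% were below 0 and the median was -0.14. Core and cap were not alike in this. In the core 8 of 16 tested genes were above 0 and 8 below, with a median of 0.015, whereas all 17 cap genes were below 0, with a median of -0.15. The cap median therefore lay near that of all genes and the core median lay 0.15 above it.

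These signs depend on the scaling. After rescaling by median-of-ratios factors, which moved the median of all tested genes up by 0.185 to 0.049, 14 of 16 core genes and 11 of 17 cap genes were above 0, with medians of 0.224 and 0.059. Relative to all genes, the core was then 0.175 higher and the cap 0.010 higher. After quantile normalization the core median was -0.004 and the cap median -0.086, against 0.014 for all genes. The core lay above the cap in each of these, although a factor for a whole sample moves both nearly alike. The plot of medians by processing shows all of them.

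**Figure D1:**
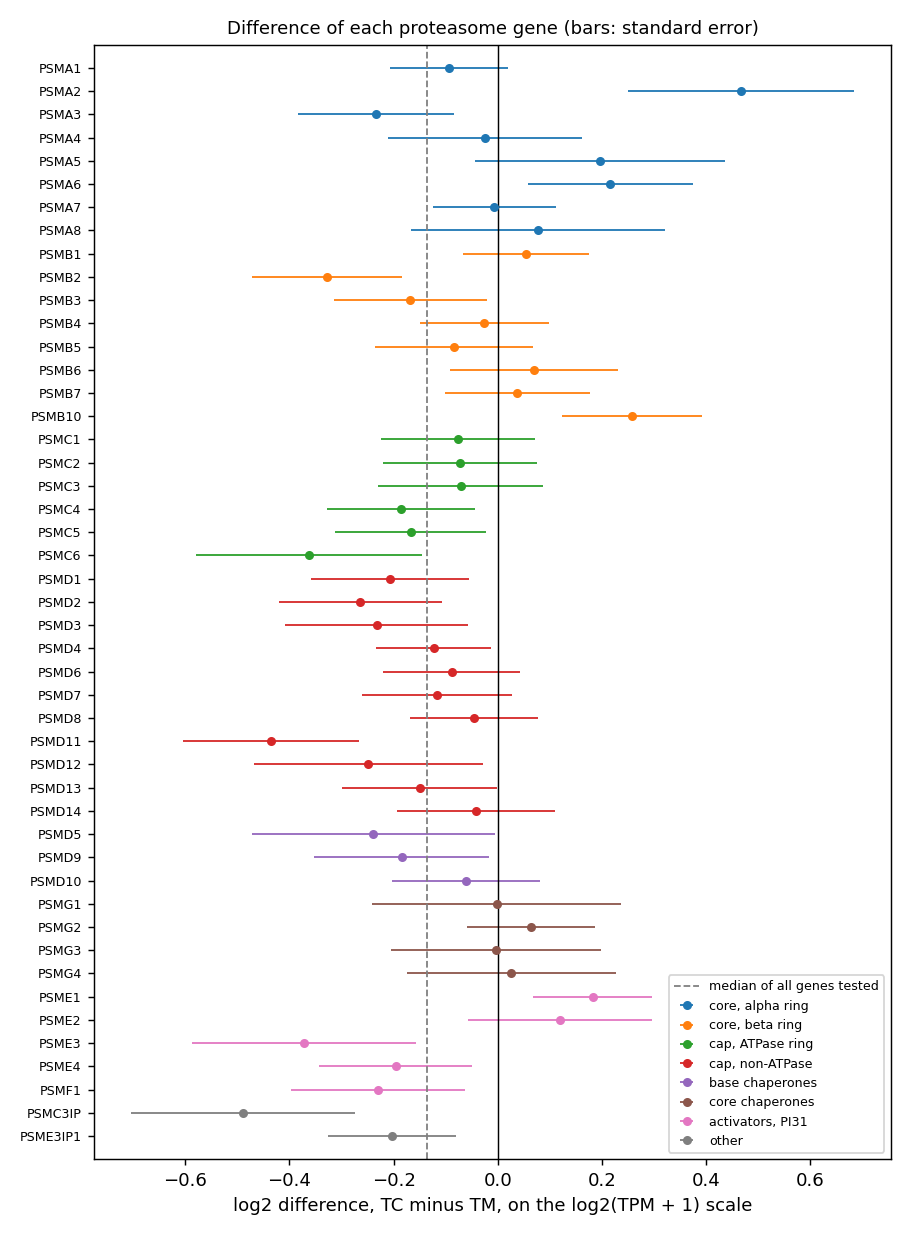
Difference of mean log2(TPM + 1), TC minus TM, for each of the 47 tested genes (points) with its standard error (bars), coloured by role, and the median of all tested genes as a dashed line. All 17 cap genes lie to the left of 0 while the core genes lie on both sides, and none was called by limma.

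The alpha ring forms the gate of the core. Its 8 genes split into 4 above and 4 below 0. PSMA2 (ENSG00000106588, chr7:42916857-42932223) was at 128.4, 114.5 and 135.7 TPM in TC and at 107.9, 110.0 and 62.88 TPM in TM. All TC values were above all TM values, and TM replicate 3 was far below the other two. The TC mean was 126.2 ± 10.73 TPM (SD, n = 3) and the TM mean 93.59 ± 26.61 (SD, n = 3). On the log2 scale this was 0.47 ± 0.22 (SE), which limma did not call (adjusted p = 0.344). Without TM replicate 3 it was 0.21.

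PSMA3 (ENSG00000100567) had the most negative difference of the ring. It was at 82.97, 67.42 and 82.35 TPM in TC and at 86.16, 82.68 and 105.7 TPM in TM, so that the groups overlapped between 82.68 and 82.97 TPM. Its log2 difference was -0.23 ± 0.15 (SE, limma adjusted p = 0.513). PSMA6, an abundant gate subunit, was at 396.5, 347.9 and 516.1 TPM in TC and at 347.5, 380.4 and 343.0 TPM in TM, with its highest value in TC replicate 3. PSMA5 was at 61.91 TPM in TM replicate 3 and between 96.82 and 123.2 TPM in the other 5 samples, the same sample in which PSMA2 was lowest.

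The beta ring carries the proteolytic sites. PSMB5, PSMB6 and PSMB7 encode the chymotrypsin-like, caspase-like and trypsin-like subunits, and none of them separated the zones. PSMB5 (ENSG00000100804), the target of bortezomib, was at 304.1, 320.9 and 411.6 TPM in TC and at 368.9, 401.0 and 323.6 TPM in TM, which gave -0.08 ± 0.15 on the log2 scale (SE, limma adjusted p = 0.841). PSMB6 was at 289.7, 303.9 and 352.6 TPM in TC and at 307.6, 356.4 and 245.1 TPM in TM (log2 difference 0.07 ± 0.16 SE). PSMB7 was at 257.9, 247.9 and 306.9 TPM in TC and at 278.7, 283.3 and 230.0 TPM in TM (0.04 ± 0.14 SE). In each of these 3 genes TC replicate 3 was the highest of the TC samples and TM replicate 3 the lowest of the TM samples. The signs of PSMB5, PSMB6 and PSMB7 each turned when a single sample was left out or the values were rescaled.

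PSMB10 (ENSG00000205220, chr16:67934502-67937087) is the immunoproteasome counterpart of PSMB7 and is induced by interferon. It was at 66.89, 72.02 and 76.90 TPM in TC and at 58.22, 55.22 and 66.85 TPM in TM. The groups did not overlap, by a margin of 66.89 against 66.85 TPM. The log2 difference was 0.26 ± 0.13 (SE, limma adjusted p = 0.405).

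PSMB2 (ENSG00000126067, chr1:35599544-35641844), a non-catalytic beta subunit, went the other way. It was at 55.82, 52.40 and 61.13 TPM in TC and at 70.53, 81.25 and 62.34 TPM in TM, without overlap. The log2 difference was -0.33 ± 0.14 (SE, limma adjusted p = 0.317). The other core genes with higher values, PSMA1, PSMA4, PSMA7, PSMB1, PSMB3 and PSMB4, overlapped between the zones, with log2 differences from -0.17 in PSMB3 to 0.05 in PSMB1.

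**Figure D2:**
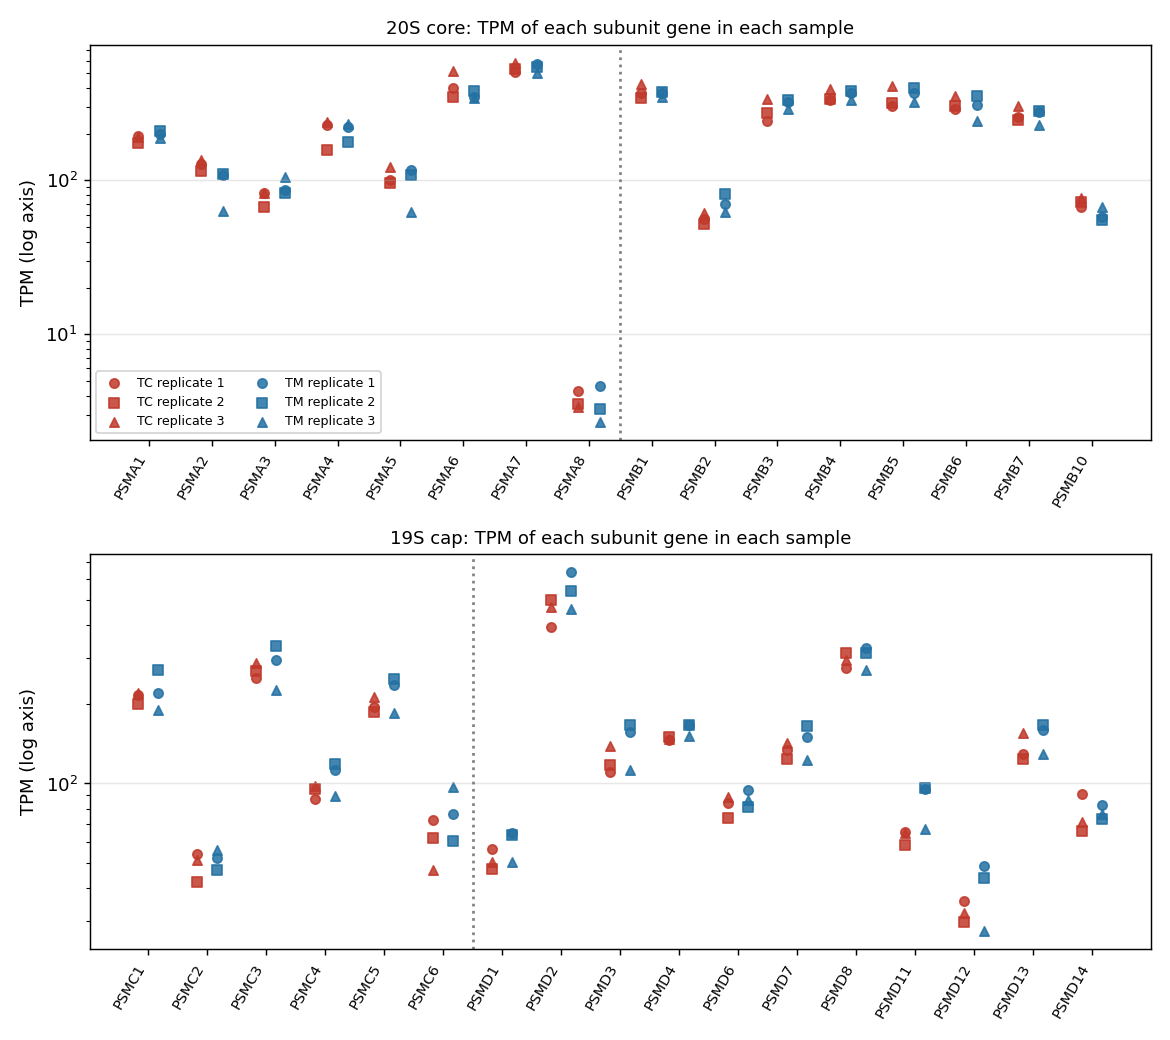
TPM (log axis) of each detected core gene (top) and cap gene (bottom) in each of the 3 TC and 3 TM samples, with the dotted line parting alpha from beta genes and ATPase from non-ATPase genes. Most genes overlap between zones, PSMA8 lies below 5 TPM, and the cap genes are mostly highest in TM replicates 1 and 2.

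The ATPase ring of the cap unfolds the substrate. Its 6 genes, PSMC1 to PSMC6, were all below 0, with differences from -0.36 to -0.07 and a median of -0.12. None had groups without overlap. PSMC6 (ENSG00000100519) showed the most negative difference and was at 72.36, 61.78 and 46.73 TPM in TC and at 76.71, 60.46 and 96.82 TPM in TM (log2 difference -0.36 ± 0.22 SE, limma adjusted p = 0.476), and the difference was -0.19 without TC replicate 3 and -0.20 without TM replicate 3. Its highest value was in TM replicate 3, where PSMC1, PSMC3 and PSMC5 had their lowest values of all samples. PSMC3 had the least negative difference of the ring and was at 251.8, 267.5 and 288.3 TPM in TC and at 295.8, 335.1 and 227.4 TPM in TM (-0.07 ± 0.16 SE, limma adjusted p = 0.876). Of the pseudogenes of PSMC1, PSMC1P5 was listed at 7.54 to 161.6 TPM across the samples. Whether reads were shared between them and PSMC1 was not tested, so the value of PSMC1 is uncertain.

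The non-ATPase subunits form the lid and the scaffold that receives ubiquitin. PSMD11 (ENSG00000108671, chr17:32444261-32483318), a lid scaffold subunit, was the only gene under an unadjusted limma p of 0.05. It was at 65.12, 58.18 and 65.03 TPM in TC and at 95.57, 96.49 and 66.86 TPM in TM. TM replicates 1 and 2 stood high while TM replicate 3 lay just above the TC samples. The TC mean was 62.78 ± 3.98 TPM (SD, n = 3) and the TM mean 86.31 ± 16.85 (SD, n = 3). On the log2 scale the difference was -0.44 ± 0.17 (SE), and its limma adjusted p was 0.257.

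PSMD4 (ENSG00000159352), a ubiquitin receptor, was tight in TC at 146.8, 150.8 and 147.3 TPM and was at 167.5, 166.8 and 151.1 TPM in TM. The groups did not overlap, and its log2 difference was small at -0.12. PSMD2, a scaffold subunit with the highest TPM of the cap, was at 393.4, 500.1 and 467.9 TPM in TC and at 636.7, 542.8 and 461.6 TPM in TM, with overlap. PSMD14 (ENSG00000115233), the metalloprotease that cuts off the ubiquitin chain, was at 91.02, 65.98 and 71.28 TPM in TC and at 83.12, 73.37 and 76.65 TPM in TM. It had the least negative difference of the 11 genes (-0.04 ± 0.15 SE, limma adjusted p = 0.931), and this sign turned under 2 rescalings and without TC replicate 2 or TM replicate 1. The other 7 genes, PSMD1, PSMD3, PSMD6, PSMD7, PSMD8, PSMD12 and PSMD13, overlapped, with differences from -0.25 in PSMD12 to -0.05 in PSMD8.

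The sample in which a gene peaked differed between core and cap. TC replicate 3 was the highest of the 6 samples in 11 of 16 detected core genes and in 0 of 17 cap genes. TM replicate 1 or 2 was highest in 14 of 17 cap genes and lowest in 0. TM replicate 3 was lowest in 8 core and 6 cap genes. These counts use TPM as listed and were not made over all tested genes, so their background share is unknown. Without TM replicate 3, 13 of 17 cap genes had no overlap between zones, all lower in TC, compared with 31.1% of all tested genes lower without overlap, and 6 of the 17 had an unadjusted limma p under 0.05, compared with 16.8%. In that fit 24 of the 47 genes did not overlap (37.1% of all tested genes), 10 had an unadjusted limma p under 0.05 (19.2% of all tested genes), and the smallest limma adjusted p was 0.0907, so still none was called. TM replicate 3 was singled out after its low cap values were seen. Without TC replicate 1, 2 or 3 or TM replicate 1 or 2, cap genes lower without overlap numbered 4, 2, 3, 2 and 3 of 17. The shares of all tested genes were then 28.6%, 23.5%, 22.4%, 21.7% and 26.1%.

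Muscle and collagen genes were also high in TM replicates 1 and 2. The matrix holds human gene IDs, and whether the reads behind these values came from human or mouse transcripts is not given in the sources used here. The 7 skeletal muscle markers found summed to 165 and 435.6 TPM in TM replicates 1 and 2, to 1.69 TPM in TM replicate 3 and to between 3.52 and 7.39 TPM in TC. The 7 fibroblast markers summed to 473.7 and 1001 TPM in TM replicates 1 and 2, to 88.51 TPM in TM replicate 3 and to between 65.13 and 223.4 TPM in TC. COL1A1, COL1A2 and COL3A1 carried nearly all of this sum. The other fibroblast markers were low and did not all go the same way. LUM was at 0 in TM replicates 1 and 2, and PDGFRA lay between 0.08 and 0.30 TPM throughout. DCN was at 4.82 TPM in TM replicate 1 and at 0 in the other samples. PDGFRB was at 2.50 to 2.58 TPM in TC and at 3.45, 4.95 and 3.90 TPM in TM. Endothelial markers summed to between 3.77 and 7.02 TPM and macrophage markers to between 95.19 and 108.4. CD68, at 84.80 to 94.19 TPM, carried most of the macrophage sum, and CSF1R and LYZ were highest in TM replicate 2 (9.12 and 3.99 TPM). Adipocyte markers summed to below 1 and erythroid markers to between 0.29 and 6.93 TPM, with 2 of 5 adipocyte and 2 of 5 erythroid genes at 0 throughout. The part of these genes' source in the cap values was not tested.

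Next, core and cap were summed per sample. The core genes summed to 3556, 3445 and 4243 TPM in TC and to 3803, 3891 and 3399 TPM in TM. The means were 3748 ± 432.4 and 3698 ± 262.3 TPM (SD, n = 3 each), so the difference was smaller than the spread. The cap genes summed to 2399, 2459 and 2574 TPM in TC and to 2981, 2961 and 2400 TPM in TM. The means were 2477 ± 88.55 and 2781 ± 330.0 TPM (SD, n = 3 each), with TM replicate 3 at the level of TC and the other TM samples above it.

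Set against each other inside a sample, core and cap separated the zones. The mean log2(TPM + 1) of the core genes exceeded that of the cap genes by 0.43, 0.43 and 0.60 in TC and by 0.26, 0.28 and 0.33 in TM. Every TC sample was above every TM sample, including TM replicate 3. The means were 0.49 ± 0.10 and 0.29 ± 0.04 (SD, n = 3 each), a difference of 0.20 on the log2 scale. No test was made of this score, since its members were chosen with results known. The groups stayed apart under each of the 7 other scalings, pseudocounts and filters, with differences from 0.15 to 0.20. A factor applied to a whole sample nearly cancels in this score, and the fit without a filter held the same core and cap genes. Those settings could therefore hardly move it. Quantile normalization and removal of the GC and length trend, which can move it, gave 0.15 and 0.17. Without TC replicate 3 the difference was 0.14. The summed TPM of the core exceeded that of the cap 1.482, 1.401 and 1.649 times in the TC samples, compared with 1.276, 1.314 and 1.416 times in TM, and here TC replicate 2 lay below TM replicate 3.

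**Figure D3:**
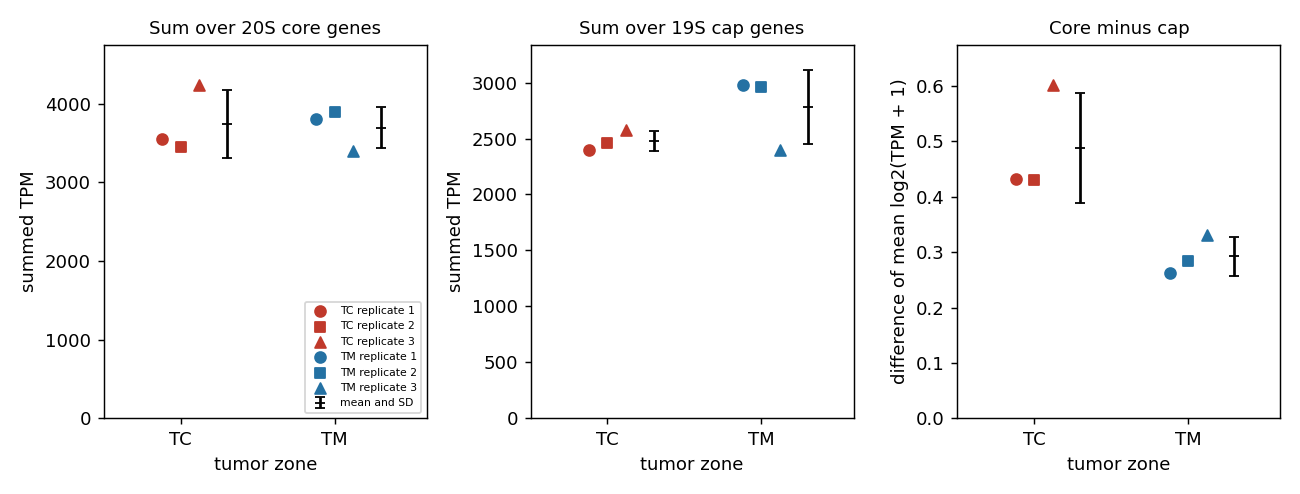
Summed TPM of the core genes (left) and of the cap genes (middle), and mean log2(TPM + 1) of core minus cap (right), for each sample, with mean and SD (n = 3) beside the points. Core sums overlap, the cap sum of TM replicate 3 lies with the TC samples, and the core minus cap values do not overlap (0.43 to 0.60 in TC, 0.26 to 0.33 in TM).

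Core and cap genes were similar in transcript length and GC content. The median length was 849 bases in the core and 827.5 in the cap, and 959 over all tested genes. The median GC content was 45.3% in the core, 47.54% in the cap and 49.89% over all tested genes. After the trend over both properties was removed from each sample, the core median was 0.126 and the cap median 0.010, against 0.022 for all genes, and the difference of core minus cap was 0.17.

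**Figure D4:**
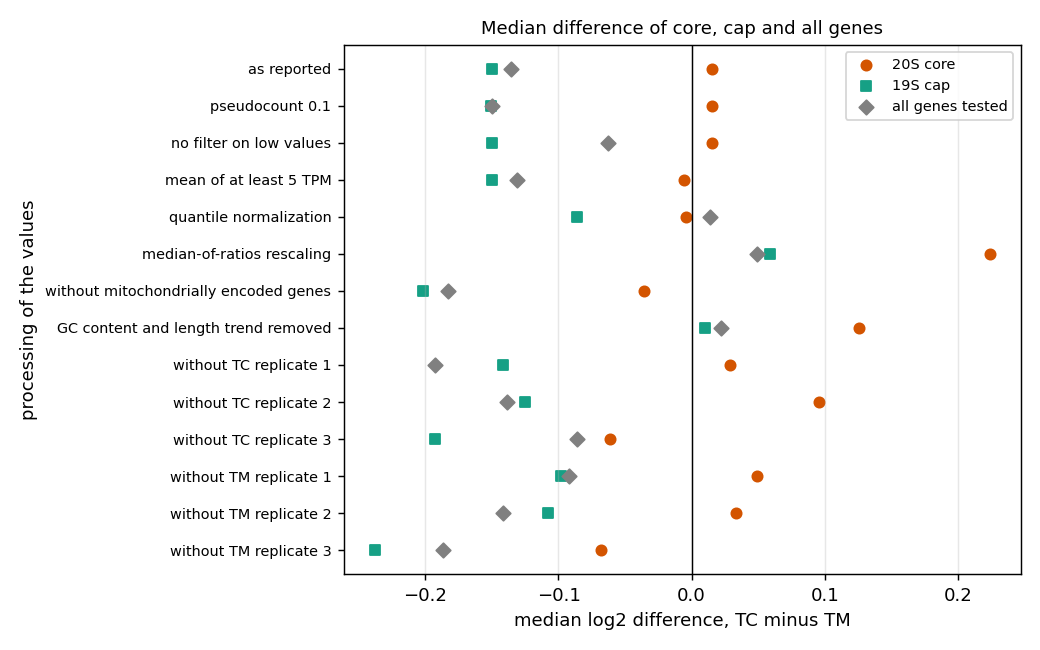
Median log2 difference, TC minus TM, of the core genes, the cap genes and all tested genes under each processing of the values and with each sample left out. The core median lies above the cap median in every line, while both cross 0 between lines.

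The assembly chaperones overlapped between the zones in all 7 genes, at means of 17.55 TPM (PSMG4) to 113.4 TPM (PSMD9). PSMD5, PSMD9 and PSMD10, which hold the ATPases of the cap base during assembly, had differences of -0.24, -0.18 and -0.06, all with overlap. PSMG1 to PSMG4, which build the alpha ring in pairs, had 2 values above and 2 below 0, from -0.003 in PSMG3 to 0.064 in PSMG2. PSMG1 was at 38.46, 34.22 and 36.48 TPM in TC and spread from 24.13 TPM in TM replicate 3 to 45.17 TPM in TM replicate 1.

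Among the activators, PSME1 and PSME2, which together form the PA28 ring, were both above 0, and the nuclear activators PSME3 (PA28 gamma) and PSME4 (PA200) were below 0. PSME1 (ENSG00000092010) was at 495.6, 442.8 and 509.3 TPM in TC and at 418.1, 444.8 and 410.7 TPM in TM, with only TC replicate 2 and TM replicate 2 out of order (log2 difference 0.18 ± 0.11 SE, limma adjusted p = 0.500). PSME2 was at 528.1, 448.0 and 672.7 TPM in TC and at 494.5, 576.5 and 434.7 TPM in TM (0.12 ± 0.18 SE). PSME3 (ENSG00000131467) was at 91.25, 92.03 and 115.5 TPM in TC and at 147.5, 157.1 and 91.35 TPM in TM (-0.37 ± 0.22 SE, limma adjusted p = 0.460), and -0.62 without TM replicate 3. As in the cap, TM replicates 1 and 2 were high and TM replicate 3 lay with TC. PSME4 was at 27.15 to 32.54 TPM in TC and 32.24 to 37.51 TPM in TM (-0.20 ± 0.15 SE). PSMF1, the PI31 regulator, was at 72.05 to 95.97 TPM in TC and 79.06 to 105.2 TPM in TM (-0.23 ± 0.17 SE, limma adjusted p = 0.573).

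The pair of genes that match by symbol only had lower means in TC. PSMC3IP, a partner of the meiotic recombinases, was at 22.99, 18.55 and 21.54 TPM in TC and at 32.54, 37.24 and 21.82 TPM in TM, and its difference of -0.49 ± 0.22 (SE, limma adjusted p = 0.315) was the most negative of all 47. PSME3IP1, which binds PSME3, was at 84.56, 92.41 and 82.45 TPM in TC and at 108.2, 97.61 and 93.39 TPM in TM, without overlap (-0.20 ± 0.12 SE, limma adjusted p = 0.482).

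Genes that act with the proteasome were followed as 4 lists of 37 genes in all (DDI2 stands in a pair of them). None was called by limma, and the smallest adjusted p was 0.0989. At an unadjusted limma p under 0.05 there were 8 of 37 genes, 2 higher and 6 lower in TC, compared with 1.93% higher and 14.2% lower over all tested genes. Their median difference was -0.13, near the -0.14 of all tested genes, and turned to 0.08 under median-of-ratios scaling (23 of 37 above 0) and to 0.03 with the GC and length trend removed.

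Of the 12 proteasome partners, 4 were above and 8 below 0, and 1 had an unadjusted limma p under 0.05. This was POMP (ENSG00000132963), the chaperone that completes the core, at 101.8, 97.86 and 119.4 TPM in TC and at 86.16, 89.72 and 77.78 TPM in TM (log2 difference 0.32 ± 0.13 SE, limma adjusted p = 0.279). SEM1, a small cap subunit that falls outside the symbol rule, was at 294.5, 308.2 and 296.7 TPM in TC and at 262.1, 254.7 and 250.8 TPM in TM (0.23 ± 0.10 SE, limma adjusted p = 0.339). Its groups did not overlap, and its difference was positive where those of the 17 cap genes were negative. ADRM1, the cap's ubiquitin receptor Rpn13, overlapped between the zones with a difference of -0.15, which turned positive under median-of-ratios rescaling and after removal of the GC and length trend.

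Among the ubiquitin and E1 genes, RPS27A, which encodes ubiquitin fused to a ribosomal protein, was at 1687, 1533 and 1758 TPM in TC and at 1422, 1322 and 1316 TPM in TM (0.29 ± 0.12 SE, limma adjusted p = 0.280). UBA1, the main ubiquitin-activating enzyme, was at 66.33, 78.43 and 62.24 TPM in TC and at 99.37, 94.84 and 96.41 TPM in TM (-0.49 ± 0.13 SE, limma adjusted p = 0.132). Both pairs of groups were without overlap, in opposite directions.

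In substrate delivery 11 of 12 genes were below 0, compared with 67% of all tested genes, and this count was 5 under median-of-ratios scaling, 6 with the GC and length trend removed and 8 under quantile normalization. VCP (ENSG00000165280, chr9:35056064-35073249), the unfoldase that hands ubiquitinated proteins to the proteasome, was at 174.9, 166.3 and 183.7 TPM in TC and at 241.5, 271.1 and 233.7 TPM in TM. TM replicate 3 stood with the other TM samples here, unlike in the cap. Its log2 difference was -0.50 ± 0.12 (SE, limma adjusted p = 0.0989). UBQLN4, a ubiquitin shuttle, had a difference of -0.46 ± 0.15 (SE, limma adjusted p = 0.181).

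The NRF1 axis had 2 genes above and 6 below 0, and 3 under an unadjusted limma p of 0.05, all lower in TC. Over all tested genes 67% were below 0 and 14.2% were lower at that p. The count of 3 was 1 under median-of-ratios scaling, 1 under quantile normalization and 0 with the GC and length trend removed. NFE2L1 itself was at 123.1, 107.9 and 96.75 TPM in TC and at 119.5, 156.3 and 118.9 TPM in TM, with overlap (-0.26 ± 0.16 SE, limma adjusted p = 0.476). MAFG and MAFK, small MAF proteins that pair with it on DNA, had differences of -0.60 ± 0.19 and -0.40 ± 0.17 (SE, limma adjusted p = 0.182 and 0.282). MAFF, the other small MAF of the list, went the other way and overlapped between the zones. Its TC mean was 67.64 TPM and its TM mean 56.67 TPM (0.29 ± 0.33 SE, limma adjusted p = 0.733). SYVN1, an ER ubiquitin ligase that targets NRF1, had a difference of -0.48 ± 0.18 (SE, limma adjusted p = 0.235). In MAFG, MAFK and SYVN1 the groups did not overlap, while 18.9% of all tested genes were lower without overlap. Under median-of-ratios scaling 1 gene of the axis was lower without overlap, under quantile normalization 1, and with the GC and length trend removed 0.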

How the data were processed

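RNA-seq of 3 TC and 3 TM samples was used, grouped by their titles. The deposited values are TPM per gene, made by the authors with SeqPrep, Sickle, HISAT2, StringTie and RSEM, on hg38 per the submitters' processing notes. The annotation release and any removal of mouse reads are not given in the sources used here. Columns summed to 1000000 (994381 in TM replicate 3). TPM keeps no depth, so no counting interval is given and the authors' DESeq2 model was not run. The number of other value columns was 0.

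TC and TM were compared by limma 3.58.1 (R 4.3.3) on log2(TPM + 1), for 13861 genes with at least 1 TPM in 3 or more samples, with a mean-variance trend, two-sided, Benjamini-Hochberg adjusted over all genes and called under 0.05. This scale understates changes of low genes. The script was tested on simulated data. Gene positions are from GENCODE v29 (GRCh38), which held 96.3% of the IDs. Members, roles and lists were chosen with earlier results of these data known. Log2 differences are named for the catalytic subunits, PSMB10, PSMD14, the activators, the extremes of each role, genes under an unadjusted p of 0.05, and POMP, ADRM1, SEM1, NFE2L1 and VCP. Others, named for lack of overlap, as the ends of a range or beside a gene of the same family, were chosen after their values were seen.

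Alternatives were a pseudocount of 0.1, no filter, a mean of at least 5 TPM, quantile and median-of-ratios scaling, TPM without mitochondrially encoded genes, no trend, robust moderation, a replicate block and each sample left out. Removal of the GC and length trend was added after the data were seen.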

Additional observations from a re-analysis of the deposited data

How the results depend on the processing

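No proteasome gene was called under any of the 16 alternatives, and no named gene or partner was (smallest limma adjusted p 0.0707, without mitochondrially encoded genes). Genes under an unadjusted limma p of 0.05 numbered 1 as reported, 2 without a filter, with a mean of at least 5 TPM, with robust moderation or with the GC and length trend removed, 3 with quantile scaling, median-of-ratios scaling or without mitochondrially encoded genes, and 0 without a trend. Their direction turned with the scaling: 0 higher and 1 lower in TC as reported, 2 higher and 0 lower with the GC and length trend removed, 2 higher and 1 lower with quantile scaling, 3 higher and 0 lower with median-of-ratios scaling, and 0 higher and 3 lower without mitochondrially encoded genes. Leaving out 1 sample gave 0 to 10, with 0 without TC replicate 1, 2 or 3, 2 without TM replicate 2 and 10 without TM replicate 3 (19.2% of all tested genes there). Genes without overlap numbered 6 as reported and 7 to 24 with a sample left out, namely 12 without TC replicate 1, 10 without TC replicate 3 or TM replicate 2, and 24 without TM replicate 3. Leaving out a sample also raised the share of all tested genes without overlap, from 22.2% to 33.7%, 29.8%, 31.9% and 37.1% for these 4 samples in that order. Partner genes under that p numbered 8 as reported, 5 with median-of-ratios scaling or without a trend, 4 with the GC and length trend removed, and 5 to 8 with a sample left out (5 without TC replicate 3 or TM replicate 1). With replicate numbers as a block, the counts were 0 proteasome genes and 5 partner genes. Same-numbered samples had correlations of 0.211, -0.121 and -0.165 between their deviations from the group means. The samples numbered 1 correlated best with each other, and the others correlated best with another number. With 3 samples per zone these values cannot show whether samples were paired, and the numbers were not taken to pair them. Over all genes tested the block left 1 call of 19.

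Leaving out 1 sample gave a core median of -0.07 to 0.10, a cap median of -0.24 to -0.10, a core sum, TC minus TM, of -197 to 202 TPM and a cap sum, TC minus TM, of -494 to -203 TPM. The core minus cap difference was 0.14 to 0.22.

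Under median-of-ratios scaling the core median was 0.224 and the cap median 0.059, the core sum was 627.9 TPM higher and the cap sum 99.21 TPM higher in TC, against TC minus TM of 50.58 and -303.6 TPM as reported, and ADRM1 turned to 0.058, PSMB5 to 0.13, PSMC3 to 0.14, PSMD10 to 0.15, PSMD14 to 0.17, PSME3IP1 to 0.0058, PSME4 to 0.0087 and PSMG3 to 0.20. With the GC and length trend removed the cap median was 0.010, and ADRM1 turned to 0.085, PSMB5 to 0.13, PSMC3 to 0.16, PSMF1 to 0.013 and PSMG3 to 0.23. With quantile scaling PSMD10 turned to 0.083, PSMD14 to 0.047 and PSMG3 to 0.12, and without mitochondrially encoded genes PSMB7 turned to -0.014. Over the fits that leave out 1 sample, the log2 differences spanned PSMB5 -0.22 to 0.0013, PSMB6 -0.075 to 0.19, PSMB7 -0.059 to 0.098, PSMC3 -0.23 to 0.052, PSMD10 -0.13 to 0.025, PSMD14 -0.18 to 0.053, PSME2 -0.036 to 0.26 and PSMG3 -0.20 to 0.13. Without a turn of sign, the spans of PSMA2 0.21 to 0.61, PSMA3 -0.30 to -0.13, PSMC6 -0.53 to -0.19, PSMD5 -0.40 to -0.06, PSME3 -0.62 to -0.23, PSME4 -0.25 to -0.12, PSMF1 -0.36 to -0.15, ADRM1 -0.25 to -0.09 and NFE2L1 -0.35 to -0.13 moved by over 1.5 times. Each sample left out turned the sign of 1 to 3 of the 33 named genes, none of them called. The cause of these changes was not tested.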
